A study of Mus musculus with 4 samples.

Results

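An interval of 5.5 Mb that starts at 7 Mb on mouse chromosome 7, in the build mm9 that the file headers name, was taken as a vomeronasal receptor cluster with neighbouring zinc finger genes. All genomic probes of the array that lie in it were counted, which gave 412 of 174638 probes (0.236%), from chr7:7073688 to chr7:12466060. Joined wherever the gap was at most 1000 bp, they formed 55 of the array's 22125 regions. The interval had been picked out because many of its regions had a lower ratio of immunoprecipitated to input DNA at day +2 than at day -2 in shRNA8 cells, so that this one contrast is given below as a description. The cells were 3T3-L1, a mouse embryonic fibroblast line that turns into fat-storing cells when induced with hormones, and the shRNA8 line carried a stably transfected short hairpin RNA against slincRAD, a long intergenic RNA. The 4 groups, with 1 array each, were shRNA8 cells at day +2, shRNA8 cells at day -2, control cells at day +2 and control cells at day -2. The controls were wild-type 3T3-L1 cells, with no scrambled hairpin named in the labels, so that carrying a hairpin and losing slincRAD cannot be told apart. The arrays did not measure slincRAD itself, and the number of shRNA8 clones is not given in the sources used here. Induction began at confluence, counted as day 0, in medium with 0.5 mM isobutylmethylxanthine, 1 µM dexamethasone and 167 nM insulin, so that the day -2 cells had not yet been induced.

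Vomeronasal receptors are G protein-coupled receptors on the sensory neurons of the vomeronasal organ, where they detect pheromones and other chemical cues. The V1R family (Vmn1r genes) and the V2R family (Vmn2r genes) have grown by repeated duplication in rodents, and their genes and pseudogenes stand in large clusters of near-identical copies. Such clusters are AT-rich and poor in CpG, and the receptors have no established role in fat cells. Methylated DNA immunoprecipitation pulls down fragments by an antibody to 5-methylcytosine, and a fragment with few CpG sites is pulled down weakly even where those sites are methylated.

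The label could be checked against gene names only in part. The RefSeq annotation of chromosome 7 in build GRCm38.p6 lists 176 Vmn1r genes, of which 126 are protein coding and 50 are pseudogenes, 105 Vmn2r genes (52 protein coding and 53 pseudogenes) and 9 Zscan4 zinc finger genes (4 protein coding and 5 pseudogenes). No position was carried from that build to mm9, so regions are given below by their mm9 coordinates, and the gene, exon or intron at a probe was not analysed here. Neither probe sequences nor the mm9 genome were used.

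The 55 regions were short tiled stretches far from each other. They held 5 to 9 probes (median 8) over 1082 to 1796 bp (median 1656 bp), and the next region lay 13.7 to 389 kb away (median 73.9 kb). Their probes were long, with a median of 58 bases against 45 bases on the rest of the array, and 61.9% of them had 55 or more bases, against 21.6% elsewhere. The probes were scattered over the glass, from row 2 to row 1063 of the 1064 rows. The array's 4 samples sat on 1 slide scanned together. Of the 412 probes, 1 carried a spot flag, and 258 (62.6%) were kept because their input signal stood above background in all 4 arrays, against 54.4% of the other probes. The kept probes formed 43 regions of at least 3 probes (3 to 8, median 6), which are compared below, and the other 12 regions are described at the end. With 1 array per group no difference between groups has a replicate check, no test was run, and precision is limited by the small number of arrays. Each ± value is the SD over regions, or over the probes of 1 region, never between replicate samples.

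Immunoprecipitated DNA from the interval was scarce in all 4 samples, while its input level depended on the sample. On a log2 scale centred on each array's median, the IP signal of the 43 regions averaged -2.47 ± 1.33 in shRNA8 cells at day +2, -2.45 ± 1.34 in shRNA8 cells at day -2, -2.47 ± 1.34 in control cells at day +2 and -2.40 ± 1.32 in control cells at day -2. The other 17409 regions of the array averaged between -0.12 and -0.10 in the 4 arrays. The interval was thus far below the rest of the array in IP signal, by about the same amount in each of the 4 arrays.

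The input signal did not behave in the same way. On the same kind of scale it averaged -0.17 ± 0.80 in shRNA8 cells at day +2, -0.81 ± 0.96 in shRNA8 cells at day -2, -0.39 ± 0.83 in control cells at day +2 and -0.66 ± 0.88 in control cells at day -2. The rest of the array averaged between 0.32 and 0.36 in the 4 arrays. Input from the interval was therefore higher at day +2 than at day -2 in both lines, and highest in shRNA8 cells at day +2.

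The log2 ratio of IP to input, median-centred and quantile-normalized over the 4 arrays, mirrored the input. It averaged -2.17 ± 1.05 in shRNA8 cells at day +2, -1.46 ± 0.80 in shRNA8 cells at day -2, -1.82 ± 0.87 in control cells at day +2 and -1.54 ± 0.79 in control cells at day -2, against -0.27 in each array for the rest. The region with the highest mean ratio of the 4 arrays was chr7:11271954-11272836 (0.06), followed by chr7:7089176-7090694 (-0.01) and chr7:7073688-7074627 (-0.02). The lowest were chr7:9742859-9744531 (-3.30), chr7:11751651-11752670 (-3.16) and chr7:9078805-9080483 (-2.99).

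**Figure D1:**
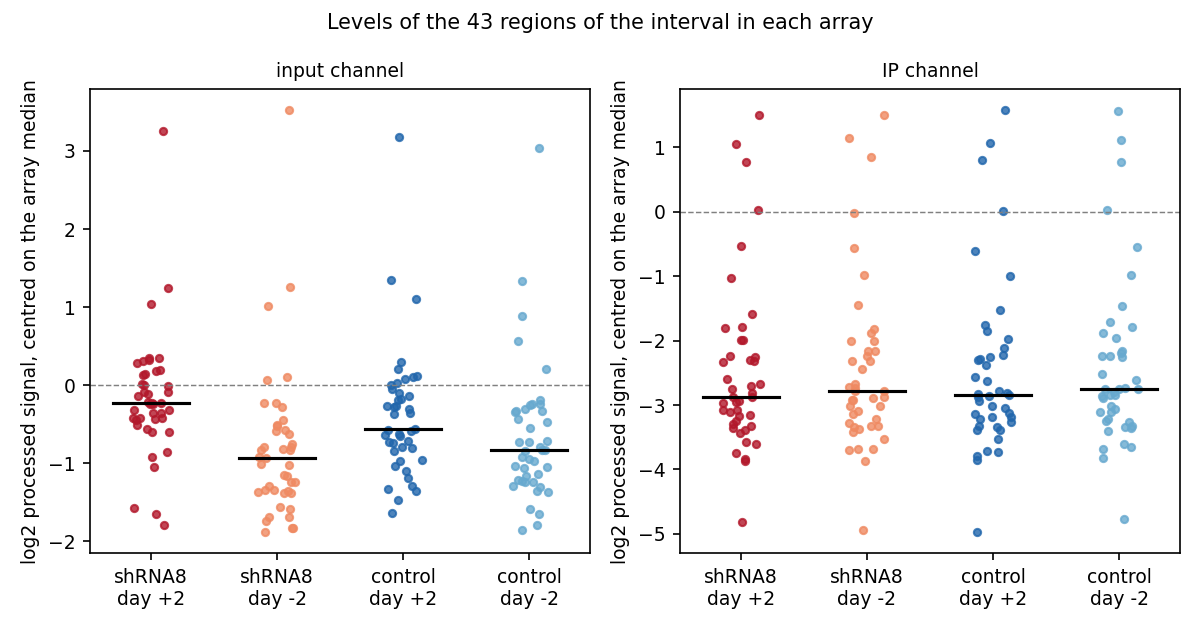
Levels of the 43 regions in each array, as log2 processed signal centred on the array median, for input (left) and IP (right); each point is 1 region and each bar the median over regions. The input medians are -0.23, -0.93, -0.56 and -0.83 for shRNA8 day +2, shRNA8 day -2, control day +2 and control day -2, while the IP medians lie between -2.87 and -2.75.

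In shRNA8 cells the ratio was lower at day +2 than at day -2 over most of the interval. The size rule used here asks for a mean log2 difference of 0.6 or more (1.52-fold) in which 75% or more of a region's probes share the sign. By this rule 28 of the 43 regions were lower and 0 were higher. Over the whole array 2.21% of 17452 regions were lower and 0.98% higher by the same rule. Since the interval was chosen on this contrast, that excess is not evidence. The ratio difference averaged -0.71 ± 0.53, with a median of -0.93 and a range from -1.65 to 0.48, and it was below 0 in 37 regions, where 47.0% of the array's regions were. Elsewhere on the array it averaged 0.01 ± 0.27, and over the other 1481 regions of chromosome 7 it averaged -0.02 ± 0.27.

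Taken apart, the channels differed in how far they moved. The input of the 43 regions was 0.64 ± 0.50 higher at day +2 on the log2 scale (1.56-fold), and 36 regions were above 0. The IP difference averaged -0.021 ± 0.094 and did not exceed 0.22 in either direction. The input difference alone passed the size rule, with more input at day +2, in 26 of the 43 regions (array-wide 1.82%). This count, too, describes the contrast on which the interval was chosen and is no evidence. The IP difference alone passed it in 0 of the 17452 regions of the array, where its SD was 0.065, so that its count of 0 in the interval says nothing particular to it. Relative to each array's median, the mean ratio difference of the interval was close in size to its mean input difference.

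**Figure D2:**
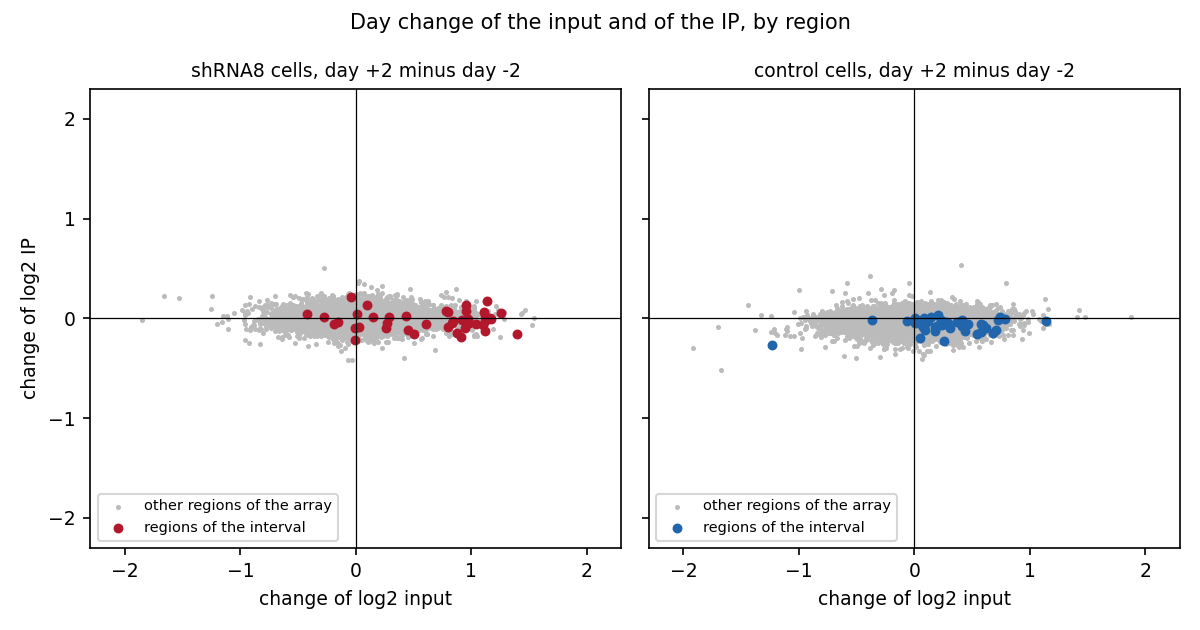
Day +2 minus day -2 difference of log2 input (horizontal) and log2 IP (vertical) for each region in shRNA8 cells (left) and control cells (right), with the regions of the interval coloured and the rest of the array in grey. The coloured points run along the horizontal axis from -0.42 to 1.40 in shRNA8 cells and from -1.23 to 1.14 in control cells, where the lowest is the 3-probe region chr7:7122903-7124335, and stay within 0.27 of 0 on the vertical axis.

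The region with the most negative ratio difference was chr7:10638028-10639653, with 6 kept probes. Its mean net input signal, the background-subtracted intensity in scanner units, was 23.4 in shRNA8 cells at day +2, 10.3 in shRNA8 cells at day -2, 11.02 in control cells at day +2 and 8.82 in control cells at day -2. Its mean net IP signal was 44.4, 45.4, 37.8 and 38.5 in the same order. Net signals are not centred, and both shRNA8 arrays were brighter as a whole, here and in the lists below. The regions outside the interval had a median net input of 62.9, 67.1, 47.7 and 50.4 and a median net IP of 296, 295, 261 and 256. At chr7:10638028-10639653 the shRNA8 day +2 array stood above the other 3 in input and did not stand apart from the shRNA8 day -2 array in IP. The ratio difference between the days was -1.65 ± 0.69 in shRNA8 cells, with 6 of 6 probes lower, and -0.77 ± 0.83 in control cells, with 4 of 6 probes lower.

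Within that region the probes shared the direction although their IP signals spanned a wide range. The probe 680 bp from the region's start had a net IP of 227, 226, 189 and 191 in shRNA8 day +2, shRNA8 day -2, control day +2 and control day -2, and a net input of 51.3, 26.7, 23.8 and 29.4. The other 5 probes had a net IP of at most 20.4 in any of the 4 arrays. Like the bright probe, each of them had more input in shRNA8 cells at day +2 than in the other 3 arrays. The regions chr7:7289705-7291328 and chr7:10426175-10427788 had a similar profile. Their probes at 682 and 678 bp had a net IP of 263 and 288 in shRNA8 cells at day +2, and no other probe of those regions passed 30 in that array.

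The next most negative regions in shRNA8 cells were chr7:10355421-10357102 (-1.32 ± 0.78, 7 of 7 probes lower), chr7:7289705-7291328 (-1.29 ± 0.53, 6 of 6), chr7:7199745-7201220 (-1.25 ± 0.46, 5 of 5) and chr7:10426175-10427788 (-1.22 ± 0.36, 7 of 7). Their mean net input was 22.5 to 30.0 in shRNA8 cells at day +2, 11.5 to 15.1 in shRNA8 cells at day -2, 12.1 to 17.0 in control cells at day +2 and 10.3 to 14.2 in control cells at day -2. In each of the 4 regions the shRNA8 day +2 array was the highest, and the other 3 arrays lay close together.

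Around the size rule no region lay between -0.63 and -0.46. Just inside it stood chr7:10033135-10034482 (-0.63), chr7:8556249-8557457 (-0.69) and chr7:9637227-9638765 (-0.70), and just outside it chr7:7162313-7163737 (-0.46), chr7:10761344-10762741 (-0.43) and chr7:9742859-9744531 (-0.37). The most positive shRNA8 differences, at chr7:11271954-11272836 (0.48 ± 0.89 over 3 probes) and chr7:12255372-12256453 (0.26 ± 0.45 over 3 probes), did not pass the rule.

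A region with very bright input did not follow the others. At chr7:7251798-7253378 the mean net input was 906 in shRNA8 cells at day +2, 1095 in shRNA8 cells at day -2, 503 in control cells at day +2 and 481 in control cells at day -2. The net IP was 654, 665, 615 and 581. Centred on the array medians, the log2 input of this region was higher in shRNA8 than in control cells by 0.071 at day +2 and 0.49 at day -2. Its ratio difference between the days was 0.24 ± 0.17 in shRNA8 cells and -0.08 ± 0.08 in control cells, and its line difference was -0.26 ± 0.66 at day +2 and -0.58 ± 0.51 at day -2.

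In control cells the ratio was also lower at day +2, by less. The contrast behind the choice of the interval did not include the control arrays. They did enter the input filter and the normalization, and the interval was chosen with earlier results of these data known. The control values are therefore not independent of the choice. The rule called 7 of the 43 regions lower (array-wide 1.11%) and 1 higher (array-wide 0.986%). The ratio difference averaged -0.28 ± 0.36, ranged from -1.09 to 1.02 and was below 0 in 36 of 43 regions, where 50.0% of the array's regions were below 0. The input was 0.28 ± 0.37 higher on the log2 scale (1.21-fold) and above 0 in 40 regions, and the IP differed by -0.068 ± 0.065, against -0.020 on the rest of the array. Elsewhere on the array the ratio difference averaged 0.00 ± 0.25.

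The most negative control value was at chr7:8638831-8640319 (-1.09 ± 0.46, 6 of 6 probes lower). Its mean net input was 20.7 in shRNA8 cells at day +2, 9.28 in shRNA8 cells at day -2, 13.1 in control cells at day +2 and 6.45 in control cells at day -2. Its net IP was 26.0, 28.3, 27.1 and 25.2. Input was higher at day +2 in both lines here, 2.23-fold in shRNA8 cells and 2.03-fold in control cells on net signal, while the IP hardly differed. Then came chr7:10638028-10639653 (-0.77), chr7:7432185-7433646 (-0.75 ± 0.45, 7 of 7 probes), chr7:7162313-7163737 (-0.73 ± 0.56, 6 of 7) and chr7:8953654-8954567 (-0.68 ± 0.62, 4 of 4).

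The single region called higher in control cells, chr7:7122903-7124335, rested on 3 probes. Its mean net input was 21.8 in shRNA8 cells at day +2, 22.0 in shRNA8 cells at day -2, 8.97 in control cells at day +2 and 25.5 in control cells at day -2. The control day +2 array alone was low. The day difference was -0.29 ± 0.43 in shRNA8 cells and 1.02 ± 1.22 in control cells.

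**Figure D3:**
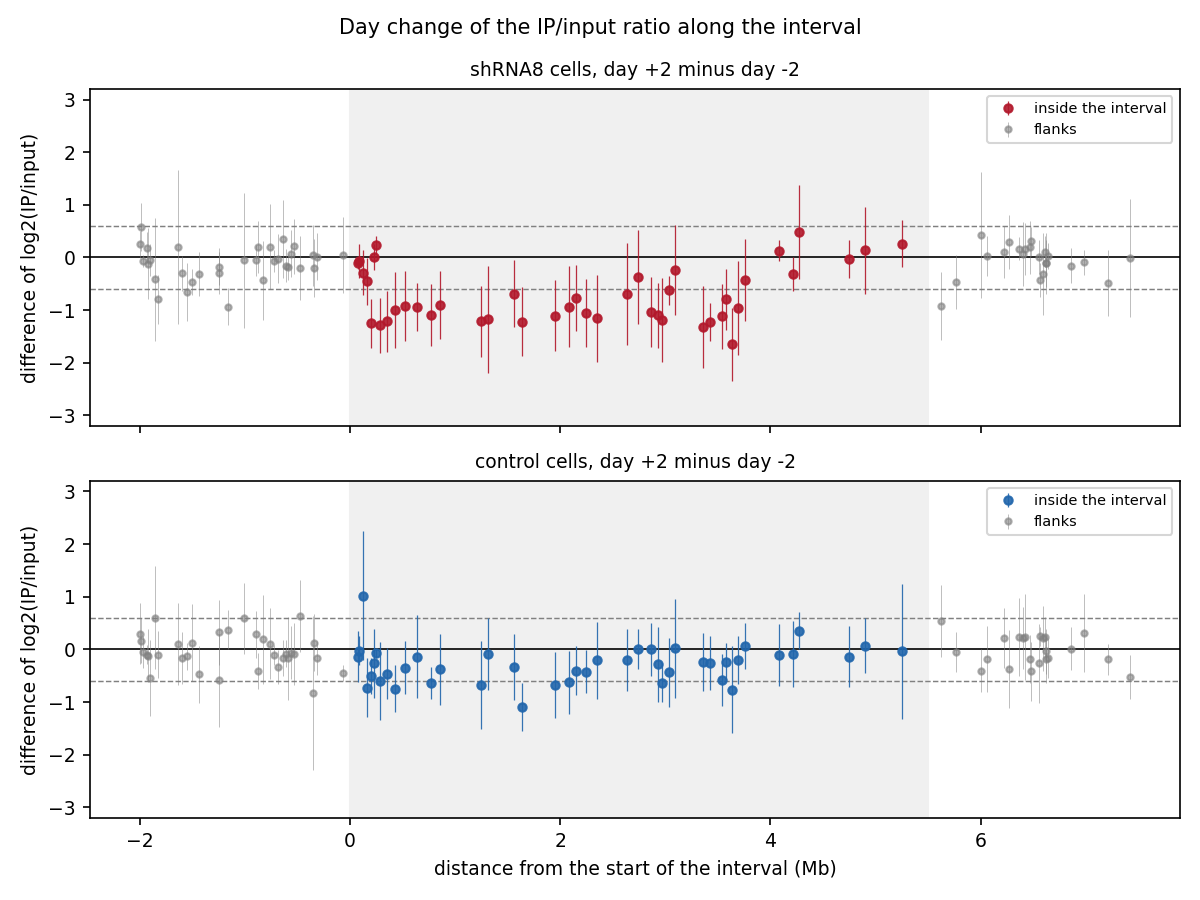
Ratio difference, day +2 minus day -2, by distance from the start of the interval, in shRNA8 cells (top) and control cells (bottom); points are region means, bars the SD over a region's probes, the shaded band the interval, the dashed lines the 0.6 size rule. Most points of the first 4 Mb lie below 0, with 28 regions in shRNA8 cells and 7 in control cells called lower.

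Set side by side, the day differences of the lines had the same sign in most regions and differed in size. Both were below 0 in 32 of 43 regions and in 4317 of 17409 on the rest of the array. The interval was chosen for its shRNA8 day difference, which was below 0 in 37 regions, and the control day difference was below 0 in 36. The joint count thus depends in part on the choice and is given as a description. Of the 7 regions lower in control cells, 6 were among the 28 lower in shRNA8 cells. Across the 43 regions the ratio differences of the lines had r = 0.61 (rho = 0.65), as a description, since the regions share arrays and may share sequence. On the rest of the array r was 0.10. The shRNA8 day difference minus the control day difference averaged -0.43 ± 0.43, was below 0 in 34 regions, and averaged 0.00 ± 0.35 elsewhere. It contains the shRNA8 day difference on which the interval was chosen, and its sign is therefore a description and no evidence of a difference between the lines. For the channels that double difference was 0.36 for input and 0.047 for IP. The 4 arrays leave no degree of freedom to test this double difference.

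Between the lines, the ratio was lower in shRNA8 cells than in control cells at day +2, while at day -2 the mean difference was small and of the other sign. The day +2 comparison uses the same shRNA8 array as the contrast behind the choice of the interval and is not independent of it. At day +2, 9 regions were lower (array-wide 1.94%) and 0 higher (array-wide 1.4%), and the difference averaged -0.35 ± 0.34, with 37 regions below 0 (array-wide 47.5%), against 0.00 ± 0.29 elsewhere. Input was 0.21 ± 0.31 higher in shRNA8 cells and IP differed by 0.00 ± 0.06. Each channel was centred alone, so their means need not add up to that of the ratio, and here they fell short of it. With the ratio median-centred but not quantile-normalized, 4 regions were lower (array-wide 1.85%). At day -2, 0 regions were lower (array-wide 1.25%) and 1 was higher (array-wide 1.18%), and the difference averaged 0.076 ± 0.26, with 16 regions below 0, where 49.0% of the array's regions were. Input differed by -0.15 ± 0.25 and IP by -0.045 ± 0.076. In 22 of the 43 regions the line difference was above 0 at day -2 and below 0 at day +2, which held for 3604 of 17409 regions on the rest of the array.

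The day +2 line differences were largest at chr7:7122903-7124335 (-1.04 ± 0.52, 3 of 3 probes lower), chr7:10638028-10639653 (-0.90 ± 0.73, 6 of 6), chr7:9865427-9867213 (-0.88 ± 0.60, 7 of 7), chr7:9350938-9352604 (-0.76 ± 0.51, 7 of 7) and chr7:10690509-10692164 (-0.75 ± 0.85, 6 of 7). At chr7:9865427-9867213 the mean net input was 46.0 in shRNA8 cells at day +2, 33.3 in shRNA8 cells at day -2, 24.3 in control cells at day +2 and 28.7 in control cells at day -2. Its day difference in the ratio was -1.04 ± 0.66 in shRNA8 cells and 0.00 ± 0.50 in control cells. Of the 9 regions lower at day +2 between the lines, 8 were also lower between the days in shRNA8 cells, as were 109 of the 329 such regions on the rest of the array, and both comparisons use the shRNA8 day +2 array. The region higher at day -2 was chr7:10761344-10762741 (0.61 ± 0.63, 4 probes), where the net input was 10.1 in shRNA8 cells and 11.95 in control cells.

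**Figure D4:**
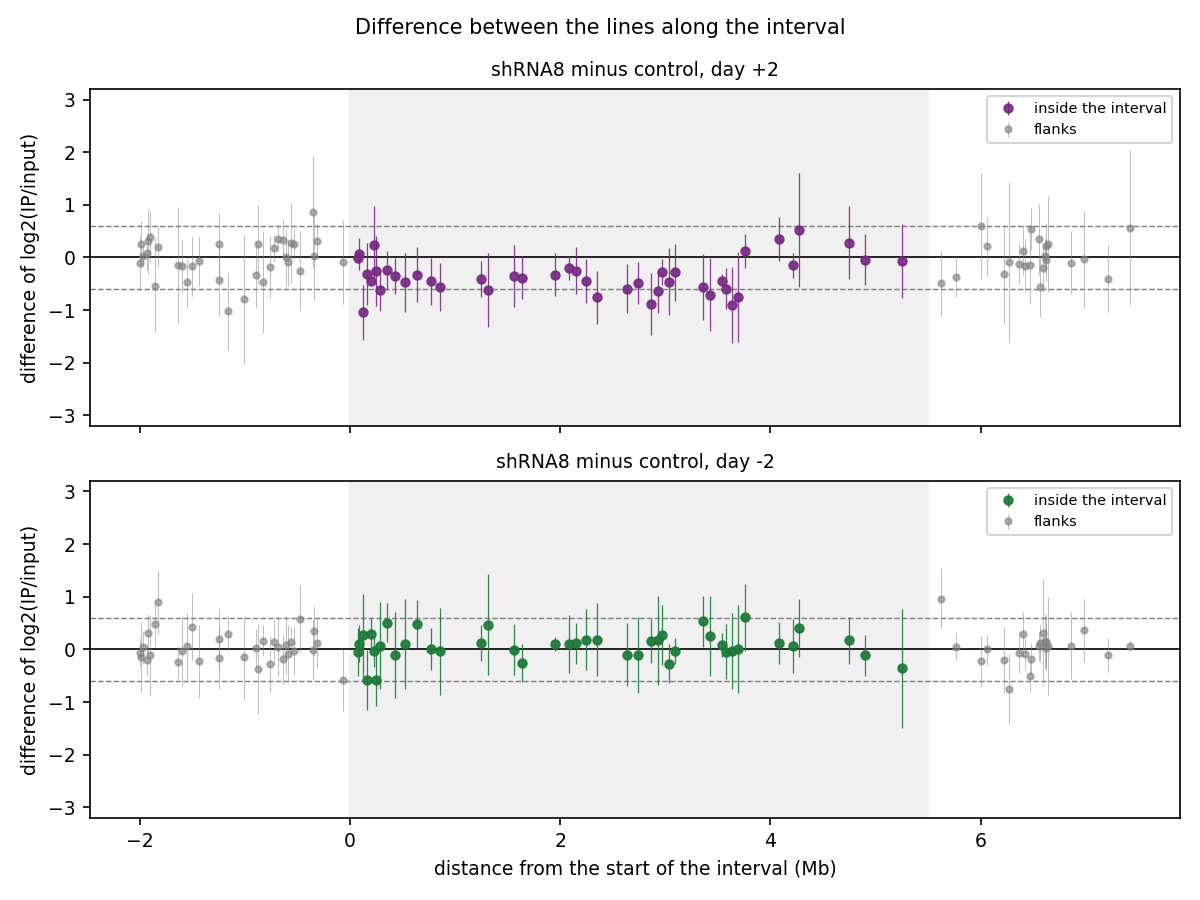
Ratio difference, shRNA8 minus control, by distance from the start of the interval, at day +2 (top) and day -2 (bottom), drawn as in the plot of day differences. At day +2 37 of the 43 regions lie below 0, and at day -2 16 do.

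Along the chromosome the lower ratios lay in the first 4 Mb of the interval, before 11 Mb, a boundary set after the values had been seen. In windows of 0.5 Mb, the mean shRNA8 day difference was -0.54 from 7 to 7.5 Mb, between -1.19 and -0.85 in each of the 7 windows from 7.5 to 11 Mb, and between 0.053 and 0.26 in the 3 windows from 11 Mb on. The same windows gave control day differences between -0.70 and -0.22 up to 11 Mb and between -0.04 and 0.06 beyond. The 37 regions before 11 Mb averaged -0.85 ± 0.44 in shRNA8 cells and -0.33 ± 0.36 in control cells, and they held all 28 and all 7 of the regions called lower. The 6 regions from 11 Mb averaged 0.11 ± 0.27 and 0.01 ± 0.18, with 0 calls. They are the 6 of 17 regions beyond 11 Mb that had 3 kept probes, and without the input filter all 17 averaged -0.15 in shRNA8 cells, with 13 below 0, and -0.018 in control cells, with 9 below 0.

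Outside the interval the windows from 5 to 7 Mb had shRNA8 day differences between -0.36 and 0.011. The first window after the interval, with 2 regions, had -0.69 in shRNA8 cells and 0.24 in control cells, and the next 3 windows had shRNA8 day differences between -0.25 and 0.19. The nearest region before it, chr7:6928912-6930621, had 0.05 ± 0.73 in shRNA8 cells and -0.45 ± 0.15 in control cells. The nearest after it, chr7:12625348-12627108, had -0.92 ± 0.64 over 3 probes in shRNA8 cells and 0.54 ± 0.68 in control cells. Among 2240 windows of the array with at least 3 regions, 8 were in the interval. Ordered from the lowest shRNA8 day difference, 6 of these 8 were among the first 20, and the best held rank 5. That order uses the contrast on which the interval was chosen, so these ranks are a description and no evidence. In control cells 1 of 8 was among the first 20, at rank 2.

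The share of probes with a bright input followed the same course. In shRNA8 cells at day +2, 232 of 412 probes (56.3%) had an input well above background, by the scanner software's flag. The share was 26.9% (111 probes) in shRNA8 cells at day -2, 32.5% (134 probes) in control cells at day +2 and 21.8% (90 probes) in control cells at day -2. On the rest of the array it was 41.5%, 39.2%, 35.7% and 34.8% in that order. Only in shRNA8 cells at day +2 was the share in the interval above that elsewhere. In the IP channel the shares were 50.5%, 52.2%, 51.2% and 49.5%, against 72.6% to 74.3% on the rest of the array.

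**Figure D5:**
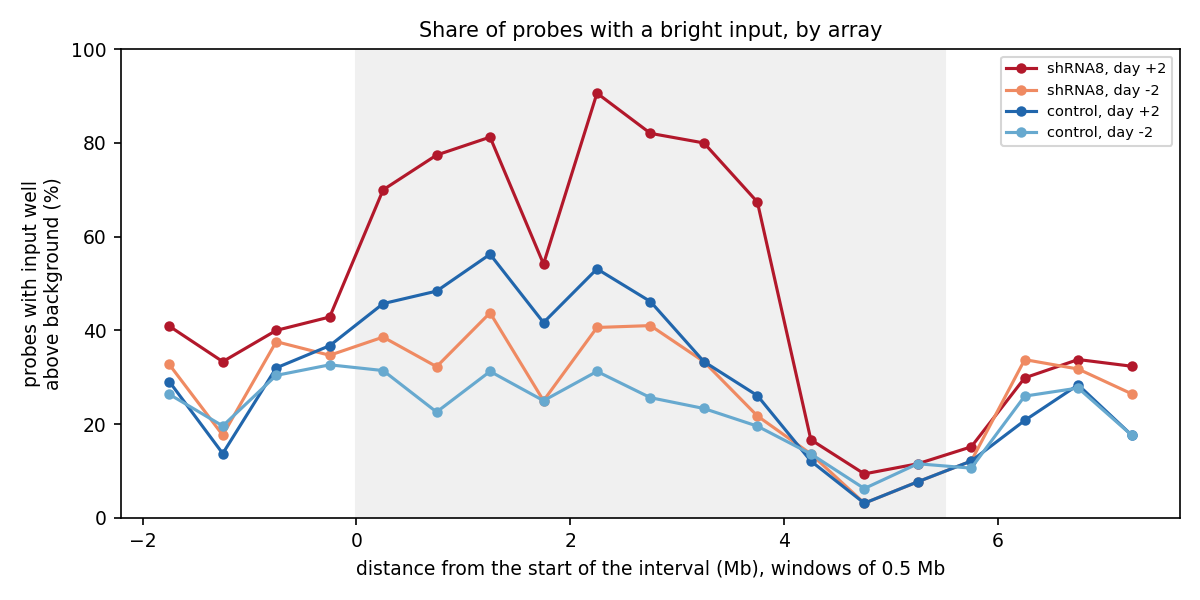
Percent of probes with input well above background in windows of 0.5 Mb, by distance from the start of the interval, in the 4 arrays; the shaded band is the interval. The shRNA8 day +2 line reaches 90.6% and drops to 16.7% in the window starting 4 Mb from the interval's start, where the other 3 arrays lie between 12.1% and 13.6%.

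Before 11 Mb the log2 input difference in shRNA8 cells was smaller at brighter probes, while the difference in net signal did not follow the order of brightness. Of the 222 kept probes before 11 Mb, the 99 with a net input under 10 in control cells at day -2 had a median net input of 17.2 in shRNA8 cells at day +2 and 9.03 in shRNA8 cells at day -2, with a median difference of 8.65. The 74 probes from 10 to 20 differed by 10.5, and the 49 probes of 20 or more differed by 6.97, with quartiles of -16.2 and 16.7 that span 0. The median log2 differences of the 3 classes were 0.98, 0.83 and 0.26. Over all classes together, the median difference was -0.30 for the 36 kept probes from 11 Mb on and -1.57 on the rest of the array. By class, from the faintest to the brightest, the rest of the array had 0.21, -0.22 and -5.57. The probes from 11 Mb on had 0.41, -0.13 and -10.0. Counted over all probes, the interval's input lay close to the array's background, as did that of the rest of the array. Values follow in the order shRNA8 day +2, shRNA8 day -2, control day +2 and control day -2. The interval's median net input over all 412 probes was 14.96, 8.34, 8.24 and 6.83. On the rest of the array the median over all probes was 8.76, 8.64, 5.95 and 6.49. The median local background was 24, 26, 22 and 23 in both.

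The number of regions called differed with how background was handled. From median spot signals without background subtraction, 0 of the 43 regions passed the size rule in shRNA8 cells (array-wide 0.0287%) and 0 in control cells (array-wide 0.00573%), so that the rule was nearly empty over the whole array. The mean differences were -0.25 in shRNA8 cells and -0.057 in control cells. With only probes whose input was well above background in all 4 arrays, 8 regions were left. Of these, 3 were lower in shRNA8 cells (array-wide 0.886%), with a mean of -0.39, and 0 in control cells (array-wide 0.137%). The part of the background in the result was not tested further.

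Single probes had the same lean. In shRNA8 cells 218 of the 258 kept probes (84.5%) had a lower ratio at day +2, against 47.7% elsewhere on the array. This share, too, describes the contrast on which the interval was chosen and is no evidence. In control cells 67.4% of the 258 kept probes had a lower ratio at day +2, against 51.7% elsewhere. The IP channel was above background in all 4 arrays for 221 of the 258 probes. Their ratio difference in shRNA8 cells averaged -0.75 ± 0.76 and their IP difference -0.04 ± 0.18. The other 37 probes averaged -0.91 ± 0.86.

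Probe length moved with the input difference in shRNA8 cells, and its part in the result was not tested beyond the alternative that follows. In shRNA8 cells the mean input difference of the interval's probes was 0.23 at 45 to 49 bases (48 probes), 0.75 at 50 to 54 bases (59 probes) and 0.81 at 55 to 60 bases (151 probes). On the rest of the array the same classes had -0.027, 0.051 and 0.10. In control cells the interval's classes had 0.31, 0.45 and 0.22, with no rise at the longest probes. With the median of each probe length removed in each array, 28 regions were called lower in shRNA8 cells (array-wide 2.03%), 8 in control cells (array-wide 1.13%) and 5 between the lines at day +2 (array-wide 1.89%). Across the 43 regions, mean probe length had r = 0.66 with the shRNA8 input difference and r = 0.21 with that of control cells, as a description.

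Some regions of the interval were laid out exactly alike. In 6 of the 55 regions (10.9%) the spacing and length of all 8 probes matched those of another region exactly, which held for 149 of 21526 regions elsewhere (0.692%). They formed 3 pairs that were 165 kb to 1104 kb apart. The first pair was chr7:7351839-7353525 and chr7:7518998-7520684, the second chr7:8245037-8246703 and chr7:9350938-9352604, and the third chr7:9245139-9246934 and chr7:9964479-9966274. Across the 8 probes of a pair, log2 IP signals correlated with r between 0.987 and 0.999 in the 4 arrays, and log2 input signals with r between 0.49 and 0.985.

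These pairs give a measure of how alike 2 regions of the same design read on the same array. Values are over all 8 probes of each region, without the input filter, with the pairs in the order above. The shRNA8 input difference between the days was 1.05 and 0.95, 0.97 and 0.89, and 1.25 and 1.31. In control cells it was 0.67 and 0.60, 0.55 and 0.18, and 0.56 and 0.28. Over the kept probes alone, which can differ between partners, the shRNA8 values were 1.11 and 0.80, 1.16 and 1.05, and 1.13 and 0.91. Partners were thus less alike in shRNA8 cells over the kept probes. The control values over the kept probes were 0.46 and 0.37, 0.72 and 0.19, and 0.42 and 0.54. Over the 24 probe pairs the log2 input of partners differed with an SD of 0.33 in shRNA8 cells at day +2, 0.83 in shRNA8 cells at day -2, 0.67 in control cells at day +2 and 0.63 in control cells at day -2. For log2 IP the SD was 0.23 to 0.28. The 24 probe pairs include probes that did not pass the input filter. With probe positions matched within 5 bp, 21 of 61 pairs of regions had IP profiles with r of at least 0.9, and 14 of the 16 regions in them lay before 11 Mb. Probe sequences were not used, so whether such partners share sequence was not tested, and the 43 regions are not taken as independent observations.

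Other clusters chosen for a similar shRNA8 day difference did not have the same pattern in every contrast. Between chr2:174009074 and chr2:177927766, 29 of 53 regions were lower between the days in shRNA8 cells (mean -0.56) and 13 in control cells (mean -0.32), with input differences of 0.52 and 0.33. Between the lines at day +2 that stretch had 2 regions lower (mean -0.15). Between chr4:146034566 and chr4:147977086, 10 of 31 regions were lower in shRNA8 cells (mean -0.22) and 1 in control cells (mean -0.10). There 9 regions were lower between the lines at day +2 (mean -0.31) and 6 at day -2 (mean -0.19). The chromosome 7 interval had 0 lower at day -2 (mean 0.076). Array-wide, 2.21% of regions were lower between the days in shRNA8 cells and 1.11% in control cells. Between the lines it was 1.94% at day +2 and 1.25% at day -2. The 2 of 53 regions (3.77%) and the 1 of 31 (3.23%) were not far above those shares. The differences between these stretches were not tested.

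The 12 regions with fewer than 3 kept probes lay mostly at the far end, 1 before 11 Mb and 11 beyond. Taken over all their probes, without the input filter, their shRNA8 day difference averaged -0.18 and ranged from -0.58 to 0.13, and the control day difference averaged 0.01. Their mean net input was 2.48 to 15.4 in shRNA8 cells at day +2, 1.70 to 13.1 in shRNA8 cells at day -2, 0.23 to 10.1 in control cells at day +2 and 0.55 to 12.2 in control cells at day -2. Input this close to background gives a ratio little weight. Over all 55 regions without the filter, 27 were lower in shRNA8 cells (array-wide 1.85%) and 6 in control cells (array-wide 0.665%).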

How the data were processed

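DNA of 4 samples was hybridized to 2-colour arrays, with 5-methylcytosine IP labelled with Cy5 and input with Cy3, 1 µg of DNA per labelling, per the labels' protocols. The authors deposited the output of Feature Extraction 11.0.1.1 on build mm9, per the file headers, and limma is named, with no use given, per the submitters' processing notes. The deposited intensity columns hold median, background-subtracted and dye-normalized processed signals per spot. The deposited log10 ratio was not used, and it was 0 for 33 to 71 of the 412 spots in each array. The label of the shRNA8 day +2 input gives that day but describes cells before induction, and it was taken as day +2.

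Spots flagged as saturated, non-uniform or outlying in any array were dropped (174301 probes left), and 95060 probes with input above background in all 4 arrays were kept. The log2 ratio of processed signals was median-centred and quantile-normalized over the 4 arrays. Each channel alone was centred on its array median. Regions joined probes at gaps up to 1000 bp and needed 3 probes. Sums and differences used numpy 2.4.6, pandas 2.3.3 and scipy 1.17.1, and the loess alternative limma 3.58.1 in R 4.3.3. Only the region calling was tested on simulated data, with normalized ratios shuffled among probes and known differences added to some regions. The input filter, normalization and background handling were not tested in this way. With 1 array per group no test was run, and a model with line and day as additive terms, which would leave 1 degree of freedom, was not fitted.

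Named regions were the 5 most negative and 2 most positive of each of the 4 comparisons, the 3 highest and 3 lowest ratios, the 3 with most probes, those nearest to the size rule and those at each end. The interval, the lists and the 2 other clusters were chosen with earlier results of these data known. The alternatives covered normalization, input filter, background, probe length, region joining, size rule and single channels.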

Additional observations from a re-analysis of the deposited data

Results flagged for a closer look

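The mean ratio difference between the lines over the 43 regions changed sign with the day: shRNA8 minus control was -0.35 at day +2 and 0.076 at day -2. At chr7:7122903-7124335 the day difference was -0.29 in shRNA8 cells and 1.02 in control cells, on 3 probes. At chr7:9865427-9867213 it was -1.04 in shRNA8 cells and 0.0022 in control cells, on 7 probes. Each was singled out because its 2 values had opposite signs, and none of these differences was tested.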

How the results depend on the processing

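No paired analysis was possible because each group had 1 array and so the groups share fewer than 2 replicate numbers. Of 28 regions lower between the days in shRNA8 cells, 7 in control cells, and 9 lower between the lines at day +2, median spot signals without background subtraction left 0, 0 and 0 (0.0287%, 0.00573% and 0.063% of all regions), with means of -0.25, -0.057 and -0.12, and a difference of day differences of -0.19. Input well above background left 3, 0 and 1 (0.886%, 0.137% and 0.812% of all regions). Its means were -0.39 in shRNA8 cells, -0.22 between the lines at day +2 and -0.069 at day -2. Its difference of day differences was -0.15. A size of at least 1 left 17, 1 and 1 (0.447%, 0.0688% and 0.235% of all regions). A size of at least 0.4 gave 11 in control cells and 20 at day +2, and 2 lower and 5 higher at day -2, where 3.8%, 5.24%, 4.09% and 4.01% of all regions were called. Loess gave 11 lower in control cells (array-wide 2.83%, mean -0.45) and 1 higher in shRNA8 cells (array-wide 2.56%). At day -2 it gave 1 lower (array-wide 2.49%) and 5 higher (array-wide 3.0%). Median centring alone left 4 at day +2 (array-wide 1.85%). Removing each probe length's median left 5 (array-wide 1.89%), with a day -2 mean of 0.017. Medians over probes left 4 lower in control cells (array-wide 0.974%), and 1 lower and 2 higher at day -2 (array-wide 1.09% and 0.894%). Without the input filter 1 region was lower at day -2 (array-wide 0.665%, mean 0.018). The 1 region higher in control cells was lost (0) without the filter, with input well above background, with median spot signals, at least 5 probes, probe medians or gaps up to 500 bp. The 1 higher at day -2 was lost (0) under the first 4 of these settings, a size of at least 1, all probes moving the same way or removal of probe length.

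Chosen after seeing the data, the IP channel alone gave 0 regions in each comparison, with day means of -0.021 in shRNA8 cells and -0.068 in control cells, line means of 0.0019 at day +2 and -0.045 at day -2, and 0.047 for the difference of day differences. Input alone, sign turned, gave 4 lower at day +2 (array-wide 1.55%, mean -0.21) and a day -2 mean of 0.15. Over the 43 regions the IP difference between the days in shRNA8 cells was above 0 in 17. Among named regions past the size rule in the comparisons recomputed for them, the sign by IP alone turned at chr7:7122903-7124335 (-0.27 in control cells and 0.066 at day +2), chr7:7289705-7291328 (0.052) and chr7:9145942-9147611 (0.076) in shRNA8 cells, chr7:8953654-8954567 (0.012) in control cells and chr7:9350938-9352604 (0.10) at day +2. The cause was not tested. Of the alternative values for the comparisons as a whole, 120 stayed within their limits and 60 did not.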
